A study of Mus musculus with 12 samples.

Results

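The genes described here encode the proteins of the cytosolic ribosome, measured by total RNA sequencing of mouse liver. They were taken from the gene names alone: Rpl or Rps followed by a number and its suffix letters, together with Rplp0, Rplp1, Rplp2 and Rpsa, leaving out names marked as pseudogenes with "-ps". This gave 90 genes of the 48537 in the table, 54 of the large subunit and 36 of the small subunit. Of these, 84 are annotated as protein-coding in GENCODE M21 and 6 as processed pseudogenes that carry a member's name (Rpl32l, Rpl6l, Rps12l1, Rps3a2, Rps3a3 and Rps4l). The study compared livers at zeitgeber time 10, in 3 groups of 4 libraries: wildtype livers given YFP (control), livers lacking both REV-ERBs, the nuclear receptors and transcriptional repressors of the circadian clock, also given YFP (DKO), and such knockout livers made to express REV-ERBalpha again (reexpression). The column headers mark the DKO libraries, and not those after reexpression, with Cre, so that Cre and the loss of the REV-ERBs cannot be told apart between control and DKO. Age, sex, strain, the deleted part of each gene and the way Cre, YFP and REV-ERBalpha were delivered were not given in the labels used here, and nothing in them says whether a library is 1 animal, so p-values measure the spread between these libraries.

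Each cytosolic ribosome holds nearly every ribosomal protein in a single copy, joined to ribosomal RNA in a small subunit that reads the mRNA and a large subunit that forms the peptide bond. Their mRNAs start with a run of pyrimidines, the 5′ terminal oligopyrimidine (TOP) motif, through which the kinase mTOR and the RNA-binding protein Larp1 control their translation, and in liver that translation follows feeding and the time of day. A change in translation would not appear in the RNA levels measured here.

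The libraries held 5621667 to 6906221 reads assigned to genes, recovered from the TPM values (a level scaled for gene length and library size). The hepatocyte markers Alb, Apoa1, Ttr, Serpina1a, Tat and Cps1 summed to 41113 ± 2350.5 TPM in the controls (SD, n = 4), 41890.1 ± 1581 in the DKO livers and 42459 ± 1786 after reexpression. Of these 6, 2 were higher in DKO than in control livers (limma adjusted p under 0.05), where 2.99% of all tested genes were. The median log2 difference of the 6 was 0.32, with 4 above 0. Nr1d1, which encodes REV-ERBalpha, had 68.7 ± 5.53 TPM in the controls, 82.5 ± 7.39 in the DKO livers and 191 ± 22.4 after reexpression, so its total RNA was not lower in the libraries labelled DKO. Nr1d2, which encodes the other REV-ERB, had 96.6 ± 14.9, 90.4 ± 7.91 and 97.7 ± 15.1 TPM. Which exons are deleted is not known here, and these totals therefore do not check the labels. Arntl, a clock gene that the REV-ERBs repress, stood at 0.728 ± 0.205 TPM in the controls against 19.8 ± 1.27 in the DKO livers and 15.1 ± 1.09 after reexpression. Of 9 other cell types whose markers were summed, 4 had control and DKO ranges apart, all higher in the DKO livers. The 6 stellate cell markers summed to 134 to 179 TPM in the controls, 217 to 241 in the DKO livers and 180.5 to 236 after reexpression, and the 5 red blood cell markers to 276 to 382, 399.9 to 686 and 372 to 835. The 6 sinusoidal endothelial markers summed to 177 to 203, 217 to 271 and 147 to 214 TPM, and the 5 pancreatic acinar markers to 9.36 to 14.5, 20.9 to 29.6 and 12.3 to 19.98. Only 1 of the 5 acinar markers averaged at least 1 TPM, so the acinar sum describes few genes. Kupffer cell markers were lower on average in the DKO livers with overlapping ranges (355 to 833 in the controls, 381 to 432 and 319.9 to 716), as were neutrophil markers (11.5 to 54.95, 4.90 to 14.03 and 7.13 to 20.9) and adipocyte markers (7.44 to 14.3, 4.42 to 9.56 and 6.19 to 9.93). Of the 5 neutrophil markers 2 averaged at least 1 TPM, and of the 4 adipocyte markers 1. Cholangiocyte markers (74.5 to 105, 76.7 to 86.1 and 79.4 to 106) and lymphocyte markers (18.03 to 27.97, 16.02 to 23.99 and 20.1 to 31.3) overlapped too. Their part in the results below was not tested, and in whole tissue a different number of cells of a type and a different RNA content per cell cannot be told apart.

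A pyrimidine motif of the kind the family is known for was counted at the start sites. RefSeq promoter sequences (GRCm38.p6) were at hand for 65 of the 90 members and 27025 genes in all. Within 50 bases on either side of an annotated start, on the transcribed strand, the pyrimidine motif CTTTC occurred in 33 of the 65 members (50.8%), against 14.6% of all genes with a promoter sequence. The windows below run from 50 bases before the start to 25 bases after it, 5′ to 3′ on the gene's strand, with CTTTC in capitals. They show 4 members with the motif near the start, and the paralogs Rpl22l1 and Rps27l, named among the differences further on, without it.
Rplp2 (chr7:141447601-141447675, plus strand): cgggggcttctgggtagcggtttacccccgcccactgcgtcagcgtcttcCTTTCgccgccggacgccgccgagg
Rpl38 (chr11:114668530-114668604, plus strand): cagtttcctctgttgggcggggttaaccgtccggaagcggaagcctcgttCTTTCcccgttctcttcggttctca
Rpl35 (chr2:39005107-39005181, minus strand): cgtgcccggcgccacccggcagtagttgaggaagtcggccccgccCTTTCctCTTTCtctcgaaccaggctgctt
Rps27 (chr3:90213624-90213698, minus strand): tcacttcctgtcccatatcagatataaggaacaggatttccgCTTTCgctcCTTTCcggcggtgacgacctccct
Rpl22l1 (chr3:28805458-28805532, plus strand): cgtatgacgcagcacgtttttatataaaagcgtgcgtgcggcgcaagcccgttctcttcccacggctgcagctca
Rps27l (chr9:66946036-66946110, plus strand): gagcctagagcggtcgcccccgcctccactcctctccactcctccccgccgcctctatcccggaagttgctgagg
In Rplp2 and Rpl38 the motif lies at the start itself, and Rpl35 and Rps27 each hold it at separate places. Rps27 holds the motif where its paralog Rps27l, in the window shown and in that of its other annotated start, does not. The other motifs searched lay over the whole 300-base window on both strands unless stated. The Ets-type motif CCGGAAGT was found in 18.5% of members against 4.3% of all genes, and TATAAA within 50 bases of the start, transcribed strand only, in 7.7% against 4.1%. The E-box CACGTG, bound by the clock activators, was in 9.2% against 8.1%. AGGTCA, the half-site of REV-ERB and related receptors, was in 10.8% of members against 18.1%. Median GC content of the promoter windows was 58.0% for the members and 52.7% for all genes. A match describes letters in a window and is not a measured binding site. A window without CTTTC can still hold another run of pyrimidines, as that of Rpl22l1 does just after the start.

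The ribosomal protein genes were mostly well expressed in these livers, but their RNAs were not at 1 common level. A filter of a mean of at least 1 TPM kept 86 of the 90 members (81 coding genes and 5 pseudogenes) and 17957 of all genes. The median coding member had 190.5 TPM, and 7 of the 81 lay above 500 TPM (Rplp1, Rps3a1, Rps15, Rpl4, Rpl36, Rpl38 and Rplp0), 32 between 200 and 500, 20 between 100 and 200, 17 between 25 and 100, and 5 below 25. The 90th percentile lay 6.75-fold above the 10th. Coding members of the small subunit had a median of 214 TPM and those of the large subunit 153. All 90 together made up 1.85 ± 0.0536% of TPM in the controls (SD, n = 4), 1.93 ± 0.144% in the DKO livers and 1.897 ± 0.118% after reexpression, with a range of 1.73% to 2.07% over the 12 libraries.

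**Figure D1:**
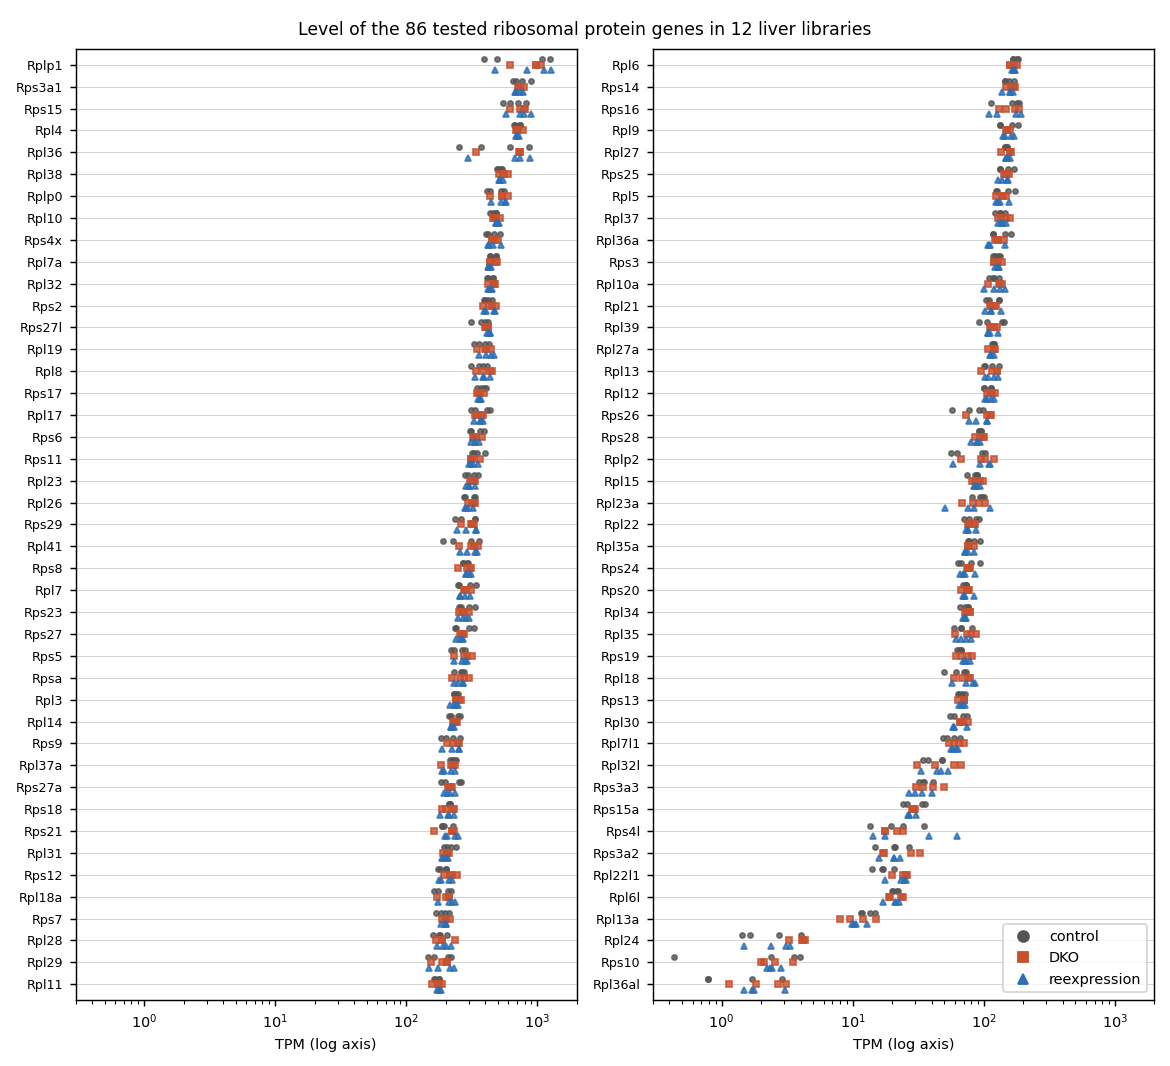
Level of each of the 86 tested members in each library, in TPM on a log axis, ordered by mean; grey circles are controls, orange squares DKO and blue triangles reexpression. The 3 groups overlie each other for nearly every gene, and the levels run from 878 TPM for Rplp1 down to 1.92 for Rpl36al.

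The members at the top of the order include subunits of both sides of the ribosome. Rps3a1 was measured at 893, 764, 692 and 649.9 TPM in the controls, 785, 738, 721 and 711 in the DKO livers and 774, 677, 739.7 and 685 after reexpression. Rps3a1 encodes a small-subunit protein, and its highest value was a control. Rps15 was measured at 549, 614, 714 and 824 TPM in the controls, 804, 737, 796 and 616 in the DKO livers and 579.8, 733, 786 and 895 after reexpression. Rpl4 was measured at 732, 732, 669 and 657 TPM in the controls, 776, 691, 709 and 705 in the DKO livers and 719.6, 691, 694 and 696 after reexpression. Rpl4, whose protein lines the peptide exit tunnel, had one of the smallest spreads of the family, an SD within groups of 0.07 on the log2 scale. Rpl36 was measured at 254, 373, 616 and 860.4 TPM in the controls, 726, 733, 734 and 341 in the DKO livers and 294, 672, 741 and 876 after reexpression. Rpl36 had the largest, 0.68, and its low libraries came from every group: control 1 and 2, DKO 4 and reexpression 1.

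The acidic stalk of the large subunit, which recruits the elongation factors, is built of Rplp0 and pairs of Rplp1 and Rplp2. Rplp0 was measured at 409.99, 436, 553 and 530.3 TPM in the controls, 592, 535, 537 and 436 in the DKO livers and 441, 525, 574 and 565 after reexpression. Rplp1 was measured at 392, 492, 1081 and 1249 TPM in the controls, 1056, 984, 969.98 and 613 in the DKO livers and 476, 832, 1116 and 1277 after reexpression. Rplp2 was measured at 56.5, 62.2, 96.1 and 102 TPM in the controls, 102, 95.8, 119 and 67.5 in the DKO livers and 58.6, 92.9, 109.7 and 112 after reexpression. All 3 were lowest in the same 4 libraries that were low for Rpl36, and their groups overlapped. The DKO minus control difference was 0.12 for Rplp0, 0.31 for Rplp1 and 0.30 for Rplp2 on the scale of log2(TPM + 1), with 95% intervals from -0.15 to 0.40, -0.56 to 1.18 and -0.26 to 0.85. Rpsa was measured at 232, 260.1, 274 and 265 TPM in the controls, 300.04, 256, 276 and 225 in the DKO livers and 229.8, 247, 271 and 270.1 after reexpression. Rpsa, a small-subunit protein also known as the laminin receptor, varied less and differed by 0.03 between DKO and control (95% interval -0.18 to 0.24).

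Some ribosomal proteins are known for roles beyond the ribosome. Rpl5 and Rpl11 bind Mdm2, the ligase that degrades p53, when ribosome assembly is disturbed. Rpl5 was measured at 172, 152, 124 and 126 TPM in the controls, 139, 147, 124 and 139 in the DKO livers and 154, 124, 132 and 128 after reexpression. Rpl11 was measured at 178, 179, 164 and 164 TPM in the controls, 187, 176, 177 and 157 in the DKO livers and 182, 171, 178 and 176 after reexpression. Rpl5 was highest in control 1 and lay between 124 and 154 TPM in all the others, and Rpl11 stayed between 157 and 187. Rps6 was measured at 388, 365, 313 and 309 TPM in the controls, 378, 340.1, 324 and 326 in the DKO livers and 356, 332, 335 and 314 after reexpression. Rps6 is the small-subunit protein phosphorylated downstream of mTOR. Its DKO minus control difference was -0.0023 (SE 0.09, 95% interval -0.19 to 0.18, limma adjusted p = 0.995), an interval within 1.5-fold in both directions.

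The 5 coding members below 25 TPM were Rpl22l1, Rpl13a, Rpl24, Rps10 and Rpl36al, and 4 of them share a feature of the annotation. In Rpl24, Rpl36al, Rpl13a and Rps10, 71.5%, 63.1%, 59.3% and 53.6% of the coding transcript lies inside exons of another annotated gene on the same strand (Gm28037, Gm49383, Gm45713 and RPS10-NUDT3). In no other coding member did this share pass 10.7%, the value of Rpl19. These 4 had means of at most 11.6 TPM, whereas the other tested coding members, the paralogs left out, started at 28.8 TPM. Rpl24 had 4.01, 1.43, 1.65 and 2.75 TPM in the controls, 3.25, 4.09, 4.19 and 4.32 in the DKO livers and 3.09, 1.48, 3.30 and 2.39 after reexpression. Rpl36al had 2.89, 1.72, 0.792 and 0.793 TPM in the controls, 2.68, 1.84, 1.13 and 3.11 in the DKO livers and 1.49, 1.78, 3.06 and 1.72 after reexpression. Rps10 had 3.94, 3.57, 0.433 and 2.38 TPM in the controls, 2.56, 2.01, 3.51 and 2.12 in the DKO livers and 2.44, 2.33, 2.23 and 2.82 after reexpression. At these levels Rpl24 rested on a mean of 5.92 reads a library, Rpl36al on 5.33 and Rps10 on 12.8. Gm28037, Gm49383 and Gm45713 were listed at 0 in all 12 libraries. The sources used here do not state how reads inside such overlaps were assigned, and its part in these low levels was not tested. The grouping by overlap was made after the levels were seen.

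Levels also went with the length used to scale them. The length in the table, equal to the union of all annotated exons for the 90 members, was a median of 2.02 times and up to 7.18 times that of the coding transcript, and mean TPM was lower where it was longer (Spearman's rho = -0.54 over the 81 tested coding members, a description across genes that share libraries). In contrast, the share of a member's 75-base stretches found in transcripts of other genes had no rank relation to its level (rho = 0.0054). This share had a median of 46.9% and was the larger part in 40 of 84 coding members. Both strands and genes overlapping the member were counted, so it does not measure pseudogene copies alone. In Rpl35, at 89.2%, the sharing genes included Wdr38, which overlaps it on the opposite strand. Because many members have near-identical pseudogene copies, the level of any single member is uncertain.

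Paralogs that replace a ribosomal protein in some tissues were read as a pair, by the paralog's share of the summed TPM. Rpl3l, the muscle form of Rpl3, made up at most 0.547% of the pair in any library (22 reads in all 12), and Rpl3 itself was measured at 239, 249, 229.97 and 229.7 TPM in the controls, 262, 238, 251 and 237 in the DKO livers and 216, 250.1, 231 and 240.3 after reexpression. The testis forms Rpl10l and Rpl39l had no read and 1 read in total. Rpl10 stood between 432 and 519.5 TPM, and Rpl39 between 91.7 and 144. Rpl36al contributed 0.667% to 2.71% of the Rpl36a pair, with the annotation overlap and the few reads given above. Rpl36a was measured at 162, 144, 118 and 118 TPM in the controls, 142, 121, 128 and 126 in the DKO livers and 145, 111, 109.6 and 108 after reexpression. Rpl36a was highest in control 1, with the groups overlapping. Rpl7l1, a nucleolar relative of Rpl7, held 16.5 ± 1.24% in the controls (SD, n = 4), 17.7 ± 1.14% in the DKO livers and 17.9 ± 1.23% after reexpression. Rpl7l1 was measured at 59.02, 65.4, 52.5 and 48.4 TPM in the controls, 70.4, 54.7, 58.9 and 64.5 in the DKO livers and 63.9, 57.8, 55.8 and 61.4 after reexpression. Rpl7 was measured at 338, 306, 251 and 249 TPM in the controls, 309, 284, 275 and 282 in the DKO livers and 304, 256, 281 and 256 after reexpression. The ranges of both genes overlapped between all groups.

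The 6 members annotated as processed pseudogenes are copies of ribosomal protein mRNAs set back into the genome. Rps12l1 was listed at 0 in all libraries. Rpl6l had 16.9 to 24.1 TPM, Rps3a2 14.7 to 32.5, Rpl32l 30.9 to 67.5 and Rps3a3 26.9 to 49.7 over the 12 libraries. Rps4l had 13.4, 19.7, 35.00 and 23.98 TPM in the controls, 24.4, 21.7, 17.6 and 17.5 in the DKO livers and 14.4, 17.7, 62.2 and 37.9 after reexpression. Rps4x had 520.1, 467, 419 and 405 TPM in the controls, 505, 449, 448 and 476 in the DKO livers and 528, 424, 459 and 421 after reexpression. Rps4l, read beside the X-linked Rps4x, made up 2.52% to 11.9% of the pair, highest in reexpression 3. Of all members, 30 also hold snoRNA genes in their bodies, 58 in total, the small RNAs that guide modification of ribosomal RNA.

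The paralogs Rpl22l1 and Rps27l had the smallest p-values among the coding members that were well above the filter. Rpl22l1 had 13.96, 20.8, 16.8 and 17.1 TPM in the controls, 20.05, 24.00, 25.3 and 26.1 in the DKO livers and 24.4, 17.7, 23.4 and 25.3 after reexpression. Rpl22l1 (chromosome 3, 28805436 to 28807424 on GRCm38, plus strand) was highest in DKO 4 and lowest in control 1, and control 2, at 20.8 TPM, lay above DKO 1, so the groups overlapped. Rpl22 had 91.5, 86.5, 77.2 and 71.03 TPM in the controls, 86.4, 84.7, 76.6 and 76.4 in the DKO livers and 75.2, 72.7, 87.2 and 75.4 after reexpression. The share of Rpl22l1 in the pair was 17.5 ± 2.93% in the controls, 22.8 ± 3.01% in the DKO livers and 22.6 ± 2.66% after reexpression. The fitted difference of Rpl22l1 was 0.46 (SE 0.14, 95% interval 0.15 to 0.76, limma adjusted p = 0.0963) for DKO minus control and 0.38 (SE 0.14, 95% interval 0.07 to 0.69, limma adjusted p = 0.26) for reexpression minus control, and neither passed the threshold of 0.05. Over all alternatives its adjusted p ran from 0.0532 to 0.225 in the first comparison, and the difference from 0.37 to 0.55.

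Rps27l, a paralog of Rps27 that p53 is known to induce, stood above its parent. Rps27l had 418, 399, 311 and 371 TPM in the controls, 406, 421, 397 and 422 in the DKO livers and 428, 415, 437 and 434 after reexpression. Rps27 had 329, 298, 233 and 241 TPM in the controls, 278, 259.5, 258 and 269.9 in the DKO livers and 271, 255, 268 and 240.4 after reexpression. Rps27l formed 57.7 ± 2.02% of the pair in the controls, 60.7 ± 1.03% in the DKO livers and 62.4 ± 1.38% after reexpression. Its level after reexpression lay within 415 to 437 TPM, and control 1, at 418, fell inside that range. The difference of reexpression minus control was 0.20 (SE 0.08, 95% interval 0.02 to 0.38, limma adjusted p = 0.321), which did not pass. Cdkn1a, a p53 target that blocks the cell cycle, was called in that comparison and is given with its list further on.

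**Figure D2:**
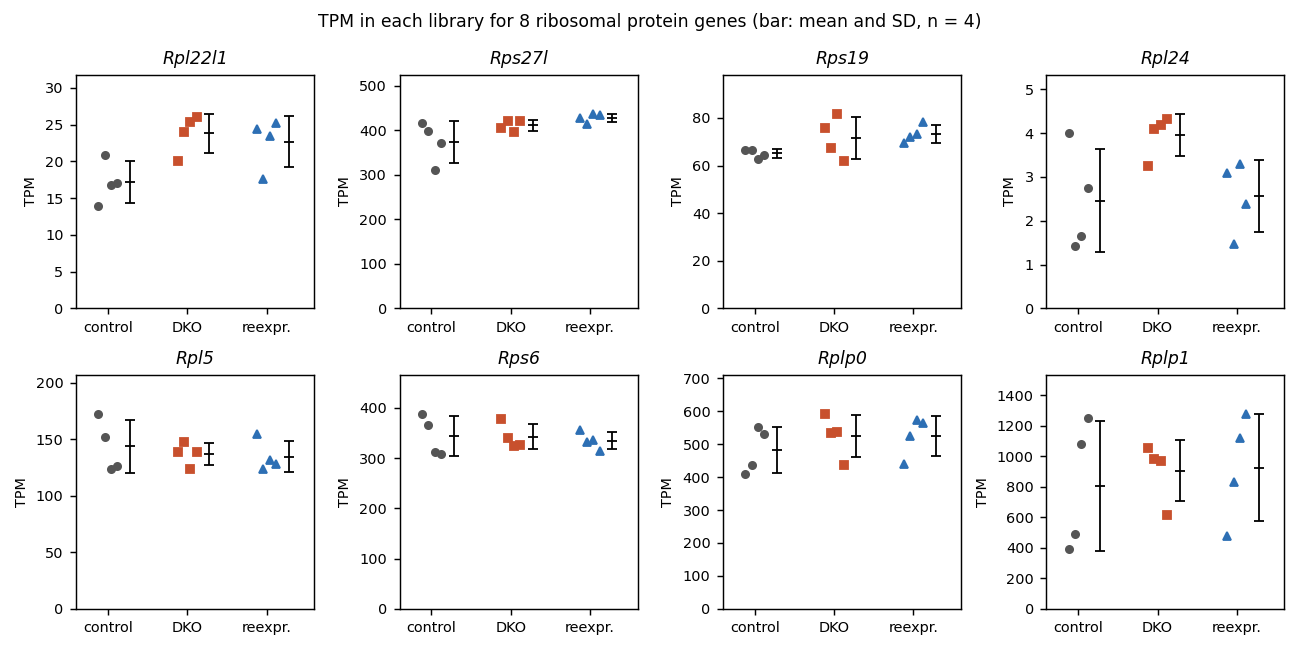
TPM in each library for 8 members, with the mean and SD of each group of 4 as a black bar; each panel starts at 0. Rpl22l1 lies higher in most DKO and reexpression libraries than in the controls but overlaps them, and Rplp1 spreads from 392 to 1277 TPM with every group wide.

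The loss of both REV-ERBs is the comparison of DKO with control. None of the 86 tested ribosomal protein genes was called in it (0 higher and 0 lower at an adjusted p under 0.05), where 5.33% of all 17957 tested genes were called, 2.99% higher and 2.34% lower. Without adjustment, 2 members were higher at a p under 0.05 and 0 were lower, against 9.60% and 8.76% of all genes, and a limma-voom fit on the recovered reads also called 0. The smallest adjusted p was 0.0963, of Rpl22l1. The members' log2 differences ran from -0.22 to 0.58 with a median of 0.05, beside a median of 0.0011 over all tested genes, and 63 of 86 members (73.3%) lay above 0, against 50.2% of all genes. Under quantile normalization the median was -0.0017, so its sign depends on the scaling, and without DKO replicate 1 or 4 it was 0.02 or 0.09. The large-subunit median was 0.06 (51 genes) and the small-subunit median 0.04 (35 genes). No member's groups were apart, against 6.13% of all genes higher without overlap and 5.40% lower.

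The intervals give the range of change measured for each member. The 95% interval of DKO minus control lay wholly within 1.5-fold in both directions for 74 of 86 members and within 2-fold for 82, compared with 46.3% and 74.2% of all tested genes. It reached a median of 0.22 on the log2 scale to either side of the fitted value over the members and 0.40 over all genes. Members had a median of 699 reads a library, and all tested genes 53.2. The 12 members whose interval reached 1.5-fold were Rpl22l1, Rpl24, Rpl32l, Rpl36, Rpl36al, Rpl41, Rplp1, Rplp2, Rps10, Rps26, Rps3a2 and Rps4l. Among them Rpl24 had the largest fitted difference, 0.58 (SE 0.25, 95% interval 0.03 to 1.12, limma adjusted p = 0.241), at 1.43 to 4.32 TPM. Next in order of p came Rps12, a small-subunit protein. Rps12 had 180.5, 176, 200.4 and 202 TPM in the controls, 242, 215, 223 and 193 in the DKO livers and 177, 183, 211 and 222 after reexpression. Its difference was 0.20 (SE 0.09, 95% interval -0.01 to 0.40, limma adjusted p = 0.289), with DKO 4 inside the control range.

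**Figure D3:**
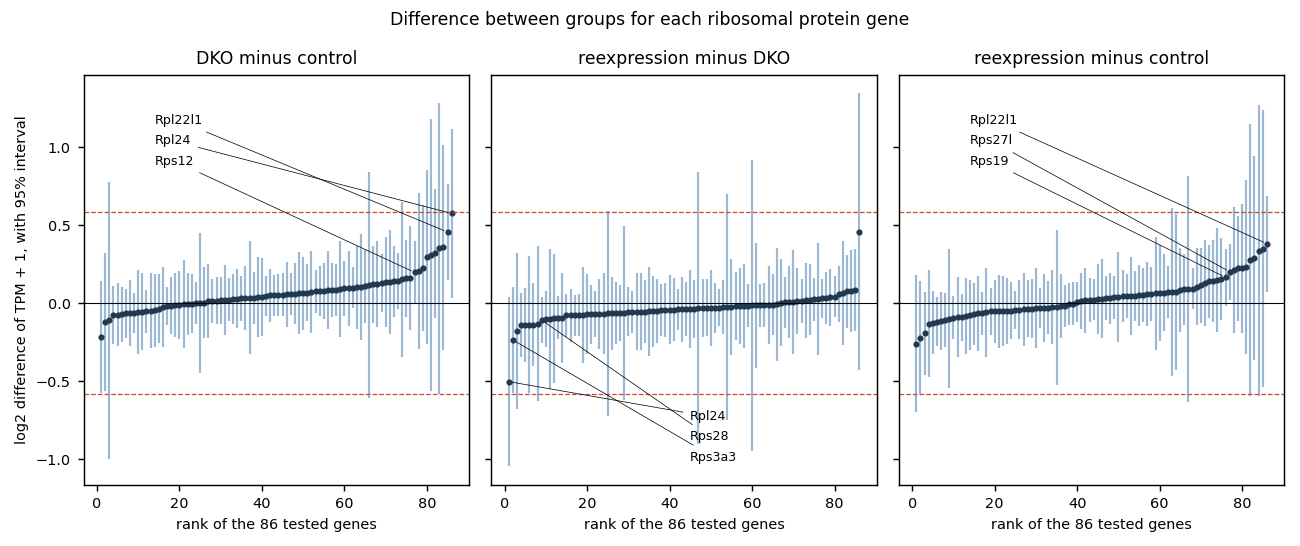
Fitted difference in log2(TPM + 1) with its 95% interval for each of the 86 tested members, ranked within each of the 3 comparisons; dashed lines mark 1.5-fold. Most intervals cross 0 and stay inside the dashed lines, and the 3 members with the smallest p in each comparison are named.

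Restoring REV-ERBalpha to the knockout is the comparison of reexpression with DKO. Again 0 of 86 members were called (limma), where 0.0724% of all tested genes (13 genes) were, 0.0278% higher and 0.0446% lower. Limma-voom called 0 as well. Without adjustment, 0 members had a p under 0.05, while 2.85% of all genes were higher at that level and 3.34% lower. In 0 members did the groups lie apart, against 2.09% of all genes higher without overlap and 2.16% lower. The median difference was -0.04, beside 0.01 over all genes, and 20 of 86 members lay above 0 (23.3%, against 53.3% of all genes). Since the same DKO libraries enter this and the preceding comparison with opposite sign, these medians are not separate evidence; without DKO replicate 1 this one was -0.0037 and without DKO replicate 4 -0.07. Intervals were within 1.5-fold for 77 of 86 members and 55.0% of all genes. Rpl24 had the smallest p, with a difference of -0.50 (SE 0.25, 95% interval -1.04 to 0.04, limma adjusted p = 0.875). Rps28 had 95.9, 91.8, 91.4 and 94.5 TPM in the controls, 99.3, 94.3, 100.02 and 85.6 in the DKO livers and 80.1, 88.9, 88.7 and 93.5 after reexpression. Rps28, of the small subunit, followed at -0.11 (SE 0.07, 95% interval -0.26 to 0.04, limma adjusted p = 0.972), and then the pseudogene Rps3a3 at -0.24 (SE 0.16, 95% interval -0.58 to 0.11, limma adjusted p = 0.983). Rps3a3 had 34.2, 35.3, 40.6 and 32.2 TPM in the controls, 30.4, 40.7, 49.7 and 34.6 in the DKO livers and 40.3, 26.9, 33.5 and 29.98 after reexpression. The groups overlapped for Rpl24, Rps28 and Rps3a3.

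Reexpression against control asks how the livers expressing REV-ERBalpha again stood beside wildtype ones, with Arntl at 15.1 TPM against 0.728 in the controls. Here too 0 of 86 members were called by limma and 0 by limma-voom, where limma called 1.82% of all tested genes, 1.16% higher and 0.663% lower. Without adjustment, 2 members were higher at a p under 0.05 and 0 lower, against 6.84% and 5.69% of all genes. The median was 0.02 beside 0.01 over all genes, with 47 of 86 members above 0 (54.7%, against 52.1%). It fell below 0 without control replicate 3 (-0.0087) or 4 (-0.0043). Intervals lay within 1.5-fold for 75 members and 50.3% of all genes. Rps19 had 66.5, 66.7, 62.8 and 64.6 TPM in the controls, 75.8, 67.4, 81.9 and 61.8 in the DKO livers and 69.4, 72.03, 73.4 and 78.2 after reexpression. Rps19, a small-subunit protein whose human counterpart is mutated in Diamond-Blackfan anaemia, was the single member with no overlap between these groups, beside 4.29% of all genes higher without overlap. Its difference was 0.17 (SE 0.08, 95% interval -0.02 to 0.35, limma adjusted p = 0.469).

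Within the groups, the members did not vary as 1 unit. Their SD within groups had a median of 0.15 on the log2 scale, below that of 81.7% of all tested genes, and 20 of the 86 were under 0.1. The 11 above 0.3 were Rpl36, Rps4l, Rplp1, Rps10, Rpl36al, Rplp2, Rpl32l, Rpl24, Rps3a2, Rps16 and Rpl23a. The comparison with all genes was not matched for depth. Members had a median of 699 reads a library, and all tested genes had 53.2. After each group's mean was removed, the correlation between pairs of members over the 12 libraries had quartiles of -0.27, 0.17 and 0.66, so that many pairs moved together and others in opposite directions. One axis, the first principal component, held 48.5% of the members' standardized variance, against 28.1% for all tested genes. Along it, 33 members correlated above 0.5 with the component and 30 below -0.5.

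The opposing sets differed in base composition. GC content, taken for each gene as the median over its annotated transcripts, had a median of 48.5% in the 33 members at the one end and 54.5% in the 30 at the other, and Spearman's rho between GC and the correlation with the component was -0.70 over the 86 members. The same relation measured over the 17530 tested genes with a GC value was -0.57. These values describe genes that share the same 12 libraries, and the relation was noticed in the data before it was measured. In control 1, the 10 GC-richest members (57.3% to 60.8% GC) lay 0.50 below their own 12-library means on the log2 scale and the 10 GC-poorest (39.0% to 46.6%) 0.14 above. Control 2, DKO 4 and reexpression 1 were low for the GC-rich set too, at -0.21, -0.30 and -0.41. The highest values for that set, 0.35 and 0.34, were in reexpression 3 and 4. Rps15, at 60.1% GC, and Rpl5, at 43.4%, show this in their values above: control 1 had the lowest Rps15 and the highest Rpl5.

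**Figure D4:**
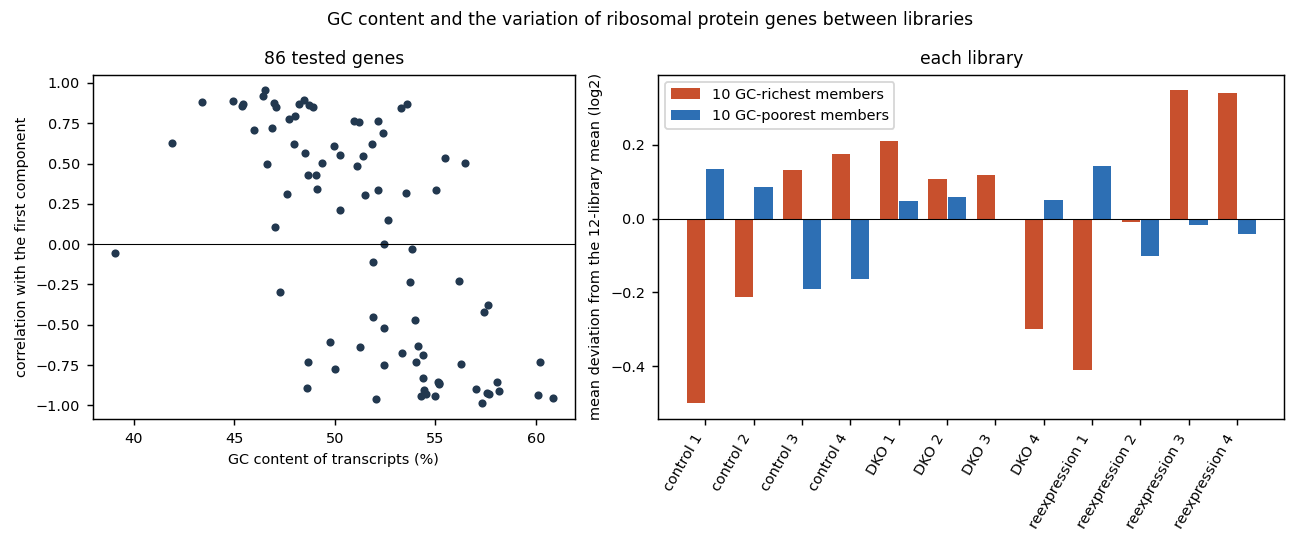
Left, GC content of each of the 86 tested members (median over the gene's annotated transcripts) against its correlation with the first component of variation within groups; right, the mean log2 deviation of the 10 GC-richest and 10 GC-poorest members from their 12-library means in each library. GC-poor members sit mostly at the top left and GC-rich ones at the bottom right, and control 1, control 2, DKO 4 and reexpression 1 are low for the GC-rich set.

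The libraries low for GC-rich members came from all 3 groups. The slope of log2 deviation on GC over all tested genes, per 10 percentage points, was -0.049 ± 0.189 in the controls (SD, n = 4), 0.028 ± 0.0654 in the DKO livers and 0.020 ± 0.130 after reexpression. Exact two-sided permutation tests over libraries gave p = 0.486 for DKO against control, 0.971 for reexpression against DKO and 0.6 for reexpression against control (0.9, 0.971 and 0.9 after Benjamini-Hochberg adjustment over 6 tests), where the smallest p that 4 against 4 libraries allow is 0.0286. Removing the trend with GC from each library lowered the members' median SD within groups to 0.10 and the median reach of the intervals to 0.16. With it, 0 members were called in each comparison, and the smallest adjusted p was 0.0931, 0.4999 and 0.114. Rps27l then had a log2 difference of 0.23 between reexpression and control and Rpl22l1 one of 0.53 between DKO and control. This correction was chosen after seeing the data.

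Genes that work with the ribosome were counted from the same fits. Rack1, a scaffold on the small subunit, was not called in any comparison and stood at 144 ± 4.12, 150.0 ± 13.3 and 145 ± 9.27 TPM (SD, n = 4) in control, DKO and reexpression. Of 6 elongation factors and 28 initiation factors and other TOP mRNAs, 0 were called in any comparison by limma. In DKO against control the medians were 0.0012 and 0.06, with 3 of 6 and 24 of 28 above 0, against 50.2% of all genes. In reexpression against DKO, which shares the DKO libraries, 1 and 5 lay above 0, against 53.3%. In reexpression against control 2 and 13 did, against 52.1%. With the GC correction, 2 of the 28 were called in DKO against control and 1 in reexpression against control. Of all 17957 genes, 704 were then higher and 616 lower in the former comparison, and 288 higher and 207 lower in the latter. Eef1a1, the elongation factor that brings aminoacyl-tRNA, had 3555 ± 254, 3486 ± 103 and 3479 ± 156 TPM. Among 28 ribosome biogenesis factors 1 rose in the DKO livers, Bysl, which works in small-subunit assembly, from 10.5 ± 1.51 to 15.2 ± 0.954 TPM (limma adjusted p = 0.0356). Over all genes 2.99% rose in that comparison. The list's median was 0.15, with 24 of 28 above 0, against 50.2% of all genes. Of 23 mTOR pathway genes and translation regulators 1 rose, Larp1, the repressor that binds TOP mRNAs, from 97.4 ± 6.29 to 119.9 ± 6.42 TPM (limma adjusted p = 0.0197), beside the same 2.99% of all genes. In the other comparisons none of these lists had a called gene, apart from the 1 named above with the GC correction.

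The p53 targets were read for the link from Rpl5 and Rpl11 to p53. Of 13, 1 rose in DKO against control, 0 passed in reexpression against DKO and 5 rose in reexpression against control, where 2.99%, 0.0278% and 1.16% of all genes rose. With the GC correction 2, 0 and 6 were called. Of all 17957 genes, 704, 9 and 288 then rose and 616, 14 and 207 fell. Cdkn1a had 2.22 ± 0.507 TPM in the controls, 53.4 ± 4.58 in the DKO livers and 62.7 ± 9.50 after reexpression (limma adjusted p = 1.449e-08 and 2.391e-08 against control). The others called in reexpression against control were Phlda3 (2.27 ± 0.432 to 14.3 ± 5.03 TPM, limma adjusted p = 0.00179), Aen (12.1 ± 1.16 to 20.2 ± 3.23, 0.00965), Ccng1 (56.6 ± 9.63 to 99.1 ± 15.1, 0.0114) and Eda2r (2.95 ± 1.24 to 8.56 ± 2.19, 0.0349). Eda2r lies outside the rule for named genes and was added after its value was seen. Mdm2 itself had 35.0 ± 7.78, 36.7 ± 4.94 and 47.8 ± 8.21 TPM and was not called.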

How the data were processed

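Libraries were TruSeq Stranded Total RNA from liver, per the labels' protocols. The submitters' processing notes name bcl2fastq 2.17, STAR 2.7.1a, SAMtools 1.9, featureCounts 2.0.1, DESeq2 1.36.0 and mm10; strand setting and annotation release are not given in the sources used here. The authors deposited TPM per gene and library, with gene lengths; columns were matched to samples by title, the Cre columns by elimination. TPM times (length - 199) was a whole multiple of 1 step in 100% of values (tolerance 0.01), which gave the read totals. The recovered counts per gene served the depth, the read numbers given in the text, the simulated data and the voom alternative.

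Genes averaging 1 TPM or more were fitted on log2(TPM + 1) with limma 3.58.1 (R 4.3.3; trended prior variance, 3 group means, 12 libraries, 9 residual degrees of freedom; Benjamini-Hochberg over all tested genes, threshold 0.05). Fold changes of low genes are understated on this scale. On simulated data for DKO against control (17902 genes tested), 92 of 188 genes changed 2-fold were called in the right direction (60 of 94 made higher and 32 of 94 made lower), 58 of 74 among those with a mean of at least 10 TPM and 100 reads, and 5 unchanged genes were called. A pass mark on the share called was not met, was lowered several times and was then dropped; why the share was low was not tested. In the deeper genes the median returned log2 change was 0.98 for genes made higher and -0.88 for genes made lower, and no call had the wrong direction.

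Replicate numbers were not used to pair the libraries in the main fit. Every member may be named; values in every library are given for the 5 highest and 3 lowest tested, the stalk proteins and Rpsa, Rpl5, Rpl11, Rps6, paralog pairs and the 3 smallest p of each comparison, and up to 4 genes by p in each other list. Members and lists were chosen with earlier results of these data known. The mitochondrial ribosomal and pseudogene lists, the GC measures and correction, the overlap grouping and the order by smallest p were added after seeing the data. All 5 motifs searched are given. One gene list is not reported here. Promoters are from RefSeq, annotation from GENCODE M21. The table's own numbered comparisons, whose groups its header does not name, were not used here. Figures were drawn with matplotlib 3.10.9.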

Additional observations from a re-analysis of the deposited data

Results flagged for a closer look

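In groups of 4 libraries, the highest or lowest value was compared with the others by Dixon's ratio of its gap to the group's range (95% level), over 102 groups. Chance alone sets off about 1 group in 20, and 3 did here. Rpl4 was at 719.6 TPM in reexpression 1, with the nearest of the group at 695.5 (ratio 0.849). Rpl36 was at 341.2 TPM in DKO 4, where the nearest was 725.6 (ratio 0.979); DKO 4 was also low for the GC-rich members. Rpl36a was at 144.6 TPM in reexpression 1, against 110.5 for the nearest (ratio 0.93).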

How the results depend on the processing

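Across 24 alternatives (22 planned, and the GC correction with and without the replicate block, added after seeing the data), 0 members were called in any comparison, in either direction. The alternatives were another pseudocount (0.1), a mean of at least 5 TPM or no filter, other scalings, voom, quality weights, only the 8 libraries compared, the replicate block and leaving out each library. The smallest adjusted p of a member ran from 0.0532 to 0.214 in DKO against control, 0.481 to 1 in reexpression against DKO and 0.114 to 0.435 in reexpression against control. Leaving out 1 library moved the median difference from 0.02 to 0.09, from -0.07 to -0.0037 and from -0.0087 to 0.03. All medians moved by less than the spread of library medians, 0.071. That spread is larger than the medians themselves (0.05, -0.04 and 0.02), so this comparison cannot show that their signs hold. Calls over all genes ranged from 559 to 1320 (958 as reported), 5 to 36 (13) and 162 to 537 (327).

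Replicate numbers were tried as a pairing: same-numbered libraries correlated at -0.0688 to 0.137 after group means were removed. Between control and reexpression all were above 0 (0.0384 to 0.137). The 10 GC-richest members were lowest in replicate 1 of both groups (-0.50 and -0.41). In replicates 3 and 4 they lay at 0.13 and 0.18 in the controls and at 0.35 and 0.34 after reexpression. In the DKO livers replicate 1 was highest, 0.21, and replicate 4 lowest, -0.30. Whether same-numbered libraries share a batch was not tested. With the replicate block 0 members were called in each comparison and all-gene calls were 778, 8 and 209. Rpl24 and Rpl36al rest on the fewest reads of the tested members, 5.92 and 5.33 a library.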

Other observations

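The mitochondrial ribosome is built from a separate set of nuclear genes. Of 76 tested mitochondrial ribosomal protein genes 2 rose in DKO against control, Mrps31 from 24.2 ± 1.80 to 32.8 ± 2.13 TPM (SD, n = 4; limma adjusted p = 0.0181) and Mrps2 from 28.8 ± 2.99 to 37.6 ± 2.90 (0.0343). Over all genes 2.99% rose. The list's median was 0.14, with 71 of 76 above 0, against 50.2% of all genes. In the other comparisons 0 were called by limma, with medians of -0.08 and 0.07.

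Named pseudogenes of ribosomal proteins, left out of the members, gave 169 tested entries. In DKO against control their median was 0.22 with 121 of 169 above 0, against 50.2% of all genes. It was -0.20 in reexpression against DKO, where the same DKO libraries enter with opposite sign, and -0.03 in reexpression against control. How reads were divided between these entries and the members they resemble was not tested. In the first comparison 1 fell, Rpl26-ps4, from 8.12 ± 1.10 to 2.67 ± 1.08 TPM (limma adjusted p = 0.00293), where 2.34% of all genes fell. In the other comparisons 0 were called. Reads assigned to all named pseudogenes numbered 1861 to 2062 in the controls, 2213 to 2577 in the DKO livers and 1990 to 2419 after reexpression. Scaled for length and depth, the summed TPM of these pseudogenes overlapped between control (4125 to 4868) and DKO (4687 to 5937).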
